A study of Homo sapiens with 8 samples.

Results

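RUVBL1 and RUVBL2 are paralogous ATPases of the AAA+ family, and they were followed here through every guide that targeted them in a genome-wide CRISPR screen for regulators of Serpin B5. The 2 genes, of 19114 in the genome-wide table, were chosen by name, as all rows whose gene is RUVBL1 or RUVBL2. This gave 8 guides, 4 for each gene, of 77441 guides in the table. The screen used AsPC-1, an established human pancreatic cancer cell line, made to express Cas9, infected with the Brunello knockout library and labelled as day 8. Fixed cells were stained for Serpin B5, the product of a KLF5 target gene, and sorted into a low, a bulk and a high bin, with about 20%, 70% and 10% of the cells in the respective gates. All 3 groups share the cell line, Cas9, the library and the day, and differ only in the gate.

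The 3 libraries held between 90421905 and 102155005 counts, or 1168 to 1319 per guide on average. Each bin was 1 library, so no difference below has a replicate check and no p-value is given. The error given with a mean is the SD between the guides of that gene, 4 for each paralog. The guides share the 3 libraries, so the SD describes how they vary. The focused library of transcription factor domains held 0 guides for either gene. Whether a guide cut its target was not measured in these counts, and no library from before the sort or from the plasmid pool was analysed here.

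RUVBL1 (pontin) and RUVBL2 (reptin) assemble into mixed hexameric rings and hydrolyse ATP. The rings are subunits of the INO80, SRCAP and TIP60 chromatin complexes. They are also the motor of the R2TP co-chaperone, which works with HSP90 to assemble RNA polymerase II, kinases of the PIKK family and small nucleolar ribonucleoproteins. Most proliferating human cells need both genes for growth, so guides against them tend to be lost from a pool. The screen addressed the question of whether their loss lowers Serpin B5 in pancreatic cancer cells.

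RUVBL1 (ENSG00000175792.12) lies on the minus strand of chromosome 3 from 128064778 to 128153914, and RUVBL2 (ENSG00000183207.15) on the plus strand of chromosome 19 from 48993562 to 49015970 (hg38, GENCODE release 44). Their coding sequences span 11 and 15 exons and 1368 and 1389 bases, and 62.1% of the 1289 bases that align without a gap are identical. The stretch that encodes the Walker A loop, which holds the phosphates of ATP, shows how the paralogs share a function with different letters. It is split between exons 2 and 3 of RUVBL1, at 128113018 to 128119348, and lies within exon 4 of RUVBL2, at 49004382 to 49004405. The 24 bases that encode the loop are in capitals, read from the coding strand, and 16 of them are identical.
RUVBL1 Walker A: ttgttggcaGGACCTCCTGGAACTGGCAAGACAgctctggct
RUVBL2 Walker A: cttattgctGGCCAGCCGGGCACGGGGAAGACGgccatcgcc

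The deposited table names its guides by number without a sequence, so the guides could not be placed in these genes. What the reference shows is how separately the paralogs can be targeted. With the Cas9 motif NGG on either strand and the cut inside a coding exon, RUVBL1 has 190 candidate sites and RUVBL2 has 250. No RUVBL1 site was identical to a RUVBL2 site over its 20 bases, 3 RUVBL1 sites came within 3 mismatches, and the median site was 9 mismatches from its nearest counterpart. The closest sites are shown because they are where a guide for one paralog would most resemble the other. They lie at chr3:128097382-128097404 on the plus strand in exon 8 and at chr19:49011212-49011234 on the minus strand in exon 11, and differ at 2 bases, in capitals, before the final 3 bases of the motif.
RUVBL1 site: agcActcAatgtccagcatgtgg
RUVBL2 site: agcTctcGatgtccagcatgtgg

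RUVBL2 also has a processed pseudogene, RUVBL2P1, on the X chromosome from 128440929 to 128441785. Of the 250 RUVBL2 sites, 0 were identical to a site in the pseudogene, 9 were within 1 mismatch of one and 44 (17.6%) within 3, while no RUVBL1 site was closer than 5 mismatches. A pair at 1 mismatch, in capitals, is shown as an example of the closest resemblance found between the gene and its copy. It lies at chr19:49007081-49007103 in exon 5 and at chrX:128441255-128441277, on the minus strand in both.
RUVBL2 site: ctCggtcttgctcatctccaggg
RUVBL2P1 site: ctGggtcttgctcatctccaggg

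All 8 guides were most abundant in the low bin and least abundant in the high bin. The raw counts of RUVBL1 guide 1 were 812 in low, 362 in bulk and 157 in high. Guide 2 had 567, 287 and 98 in the same order. Guide 3 had 454, 289 and 153, and guide 4 had 352, 184 and 142. The 4 RUVBL1 guides thus kept the same order of bins although their counts differed among themselves. For RUVBL2, guide 1 had 1652, 921 and 473 counts, and guide 2 had 926, 572 and 336. Guide 3 had 613, 458 and 366, and guide 4 had 671, 506 and 318. Within each paralog the lowest count in the low bin was above the highest count in the high bin.

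**Figure D1:**
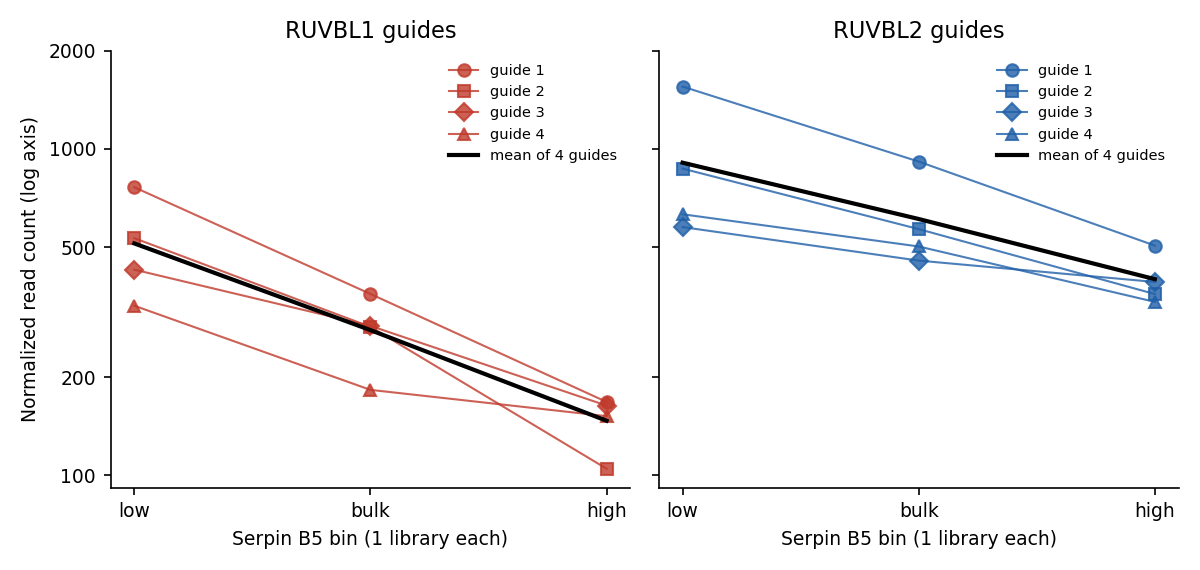
Normalized read counts (log axis) of the 4 RUVBL1 guides (red) and the 4 RUVBL2 guides (blue) in the low, bulk and high bins of Serpin B5, 1 library each, with the mean of the guides in black. Each line goes down from low to high, and the means go from 514 to 147 for RUVBL1 and from 908 to 399 for RUVBL2.

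Counts were scaled by a median-ratio size factor per library, and the guide ratio is log2 of the scaled count in one bin plus 5 over that in another plus 5, centred on the median gene-targeting guide. For RUVBL1 the low over high ratios were 2.15, 2.29, 1.36 and 1.10 for guides 1 to 4. For RUVBL2 they were 1.61, 1.27, 0.55 and 0.88. A ratio of at least 1, a 2-fold excess in the low bin, was seen for 4 of 4 RUVBL1 guides and 2 of 4 RUVBL2 guides, against 1.43% of all gene-targeting guides and 0.101% of control guides. Of the 994 non-targeting control guides, 3 reached the ratio of the weakest RUVBL2 guide and 1 that of the weakest RUVBL1 guide. The middle 95% of control guides lay between -0.28 and 0.33.

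Counting error was smaller than the spread between guides. The exact Clopper-Pearson 95% interval of the ratio ran from 1.98 to 2.62 for RUVBL1 guide 2 and from 0.81 to 1.39 for RUVBL1 guide 4. For RUVBL2 it ran from 1.46 to 1.76 for guide 1 and from 0.36 to 0.74 for guide 3. In each paralog the intervals of the strongest and the weakest guide did not overlap. The intervals cover counting error only, since PCR had multiplied the molecules before they were read.

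The gene score, the mean of the guide ratios, was 1.73 ± 0.59 for RUVBL1 (SD, 4 guides) and 1.08 ± 0.46 for RUVBL2, or 3.31-fold and 2.11-fold. Both were at least 1, as were 1.09% of the 19113 genes scored (208 genes), and they ranked 44 and 193 from the top. Without its guide 1 the RUVBL2 score was 0.90. In both genes all 4 guides were above 0, as in 11.2% of genes with 4 guides. The scale of the screen is set by the antibody target SERPINB5, at 7.08 ± 1.29, and by KLF5, at 4.70 ± 1.19. The RUVBL1 and RUVBL2 scores therefore lie far above those of most genes, whose central 95% ran from -0.43 to 0.58, and far below those of the antibody target and of KLF5.

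Each tail was then set against the bulk bin, which shows on which side of the sort the guides moved. These ratios share the bulk library and are given side by side. Low over bulk was 0.84 ± 0.21 for RUVBL1 and 0.51 ± 0.21 for RUVBL2, with all 8 guides between 0.32 and 1.07. High over bulk was -0.88 ± 0.48 for RUVBL1 and -0.57 ± 0.27 for RUVBL2, with all 8 guides between -1.40 and -0.21. The guides of both paralogs were thus richer in the low tail and poorer in the high tail than in the bulk. In the gene means both sides moved by similar amounts on the log2 scale. All 4 guides were richer in the low tail and poorer in the high tail in 2.21% of genes with 4 guides (413 genes). Neither gene reached a score of 1 in low over bulk (0.0785% of all genes did) or of -1 in high over bulk (0.298% did). Their ranks were 38 and 192 from the top in the former and 90 and 238 from the bottom in the latter.

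By the gene means, the low side carried 48.8% of the distance between the tails for RUVBL1 and 47.2% for RUVBL2. It carried 61.5% for KLF5 and 69.9% for SERPINB5. For SERPINB5 the values were 4.95 ± 0.34 in low over bulk and -2.13 ± 1.16 in high over bulk, and for KLF5 2.89 ± 0.25 and -1.81 ± 1.14. Single guides of a paralog differed in this balance. RUVBL1 guide 2 was at 0.89 in low over bulk and -1.40 in high over bulk, and guide 4 at 0.84 and -0.26. RUVBL2 guide 4 was at 0.32 and -0.56, and guide 3 at 0.34 and -0.21. No test of the difference in balance between the genes was possible with 1 library per bin.

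**Figure D2:**
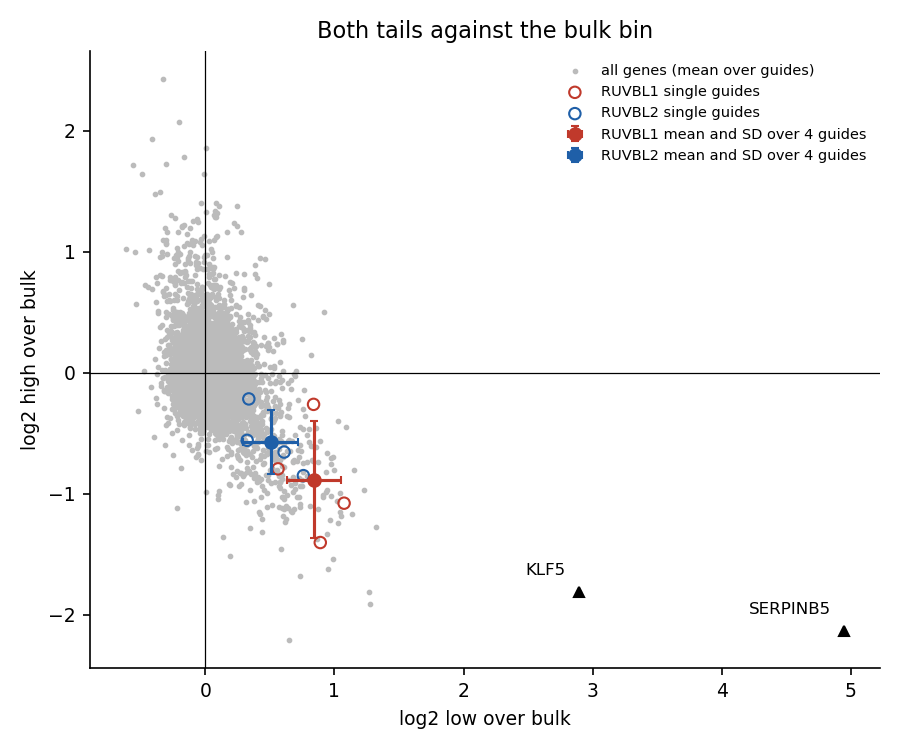
Log2 low over bulk (x axis) against log2 high over bulk (y axis) for all 19113 genes (grey, mean over guides), the single guides of RUVBL1 and RUVBL2 (open circles) and the mean ± SD over 4 guides of each (filled). All 8 guides lie to the right of 0 and below 0, and KLF5 and SERPINB5 (triangles) lie further to the right.

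To express these ratios in cells, the frequency of a guide in each library was weighted by the share of cells in its gate. By this estimate 36.2%, 33.6%, 28.1% and 31.6% of the cells that carried RUVBL1 guides 1 to 4 fell in the low gate. For RUVBL2 guides 1 to 4 the estimates were 30.9%, 28.6%, 24.3% and 24.6%. The median gene was at 19.9%, so all 8 guides were above it. The means were 32.4% ± 3.39 for RUVBL1 and 27.1% ± 3.22 for RUVBL2 (SD, 4 guides), against 67.0% ± 4.09 for KLF5 and 89.6% ± 2.23 for SERPINB5. In the high gate the estimates were 4.95% ± 1.73 for RUVBL1 and 6.41% ± 1.36 for RUVBL2, and the median gene was at 9.93%. Between 59.9% and 68.8% of the cells with any of these guides remained in the bulk gate. The gate shares are approximate, and the estimates scale with them.

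The paralogs were also compared with each other. RUVBL1 was higher than RUVBL2 by 0.65 on the log2 scale in low over high. The guide ranges overlapped, from 1.10 to 2.29 for RUVBL1 and from 0.55 to 1.61 for RUVBL2. A RUVBL1 guide was above a RUVBL2 guide in 13 of 16 guide pairs. In low over bulk the difference was 0.33 (14 of 16 pairs), and in high over bulk it was -0.31 (RUVBL1 above RUVBL2 in 4 of 16 pairs). The guides share the 3 libraries and the pairs share guides, so these values describe the guides and are no replicate check. Knockout efficiency of the single guides was not measured, so a difference between genes and one between their guides cannot be told apart.

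Abundance separated the paralogs without overlap. Summed over the gates, RUVBL1 guides were present at 0.30 ± 0.08 of the median guide, with single values of 0.40, 0.30, 0.29 and 0.20. RUVBL2 guides were at 0.62 ± 0.23, with 0.95, 0.58, 0.45 and 0.49. All RUVBL1 guides were rarer than all RUVBL2 guides, and 7 of the 8 were at or below 0.58 of the median. By mean abundance RUVBL1 was the 75th and RUVBL2 the 1817th rarest of 19113 genes. Fewer infected cells at the start and loss of cells during growth cannot be told apart in these libraries.

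In each paralog the rarest guide had the smallest low over high ratio, but not the smallest low over bulk ratio, which was that of RUVBL1 guide 3 (0.56) and RUVBL2 guide 4 (0.32). The normalized bulk counts of RUVBL1 guides 1 to 4 were 360, 285, 287 and 183, and the guide lowest in bulk, guide 4, had the smallest low over high ratio. For RUVBL2 the bulk counts were 915, 568, 455 and 503, and guide 3, the lowest, again had the smallest ratio, while guide 1 had the highest count and the highest ratio. The guides were spread most widely in the low bin. There the highest guide exceeded the lowest by 2.31-fold for RUVBL1 and 2.69-fold for RUVBL2, compared with 1.97-fold and 2.01-fold in the bulk bin and 1.60-fold and 1.49-fold in the high bin. With 4 guides a gene these orders are descriptions.

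Because both genes were scarce, each was set beside 200 genes with 4 guides of like mean normalized bulk count. The set was centred on the gene by rank where the table allowed. RUVBL1, at 279 ± 72.7 per guide, was too low for this, so its set was the 200 lowest such genes in the bulk bin. They spanned 82.5 to 386, and most of them had a higher bulk count than RUVBL1. These genes leaned towards the low bin as a group, with a median score of 0.29 and 17.0% (34 genes) at or above 1. RUVBL1 ranked 10th in this company, below SERPINB5 itself, the ribosomal protein gene RPL11 (2.41), the polymerase subunit genes POLR2C (2.30) and POLR2J (1.94), the channel kinase gene TRPM7 (1.92) and 4 others. A low bulk count is not always a low abundance, since SERPINB5 guides were estimated at 1.39 times the median guide over all gates, with 9.98% of their cells in the bulk gate. RUVBL1 exceeded the median of the set by 1.44. Of the set, 38.5% had all 4 guides above 0. A set of 100 genes could be centred on RUVBL1 and spanned 94.6 to 327. It leaned further to the low bin, with a median of 0.53, 25% at or above 1 and 51% with all 4 guides above 0. RUVBL1 exceeded that median by 1.19, and 5 of these genes were above it.

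The company of RUVBL2 looked different. At 610 ± 208 per guide, its 200 nearest genes spanned 600 to 620 and had a median score of 0.00, with 1.0% (2 genes) at or above 1. These were the ribonuclease gene ZC3H12A (2.20) and the asparaginyl-tRNA synthetase gene NARS (1.65), so that RUVBL2 ranked 3rd. It exceeded the median of its set by 1.08. Of the set, 12.5% had all 4 guides above 0. RUVBL1 thus had the higher score and RUVBL2 the higher place among 200 genes of like bulk count. Sets of like estimated abundance were chosen after seeing the data. Among 200 such genes, 8 were above RUVBL1 and 4 above RUVBL2, and among 100 such genes, 1 was above each of them. Whether scarcity had a part in either score was not tested.

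**Figure D3:**
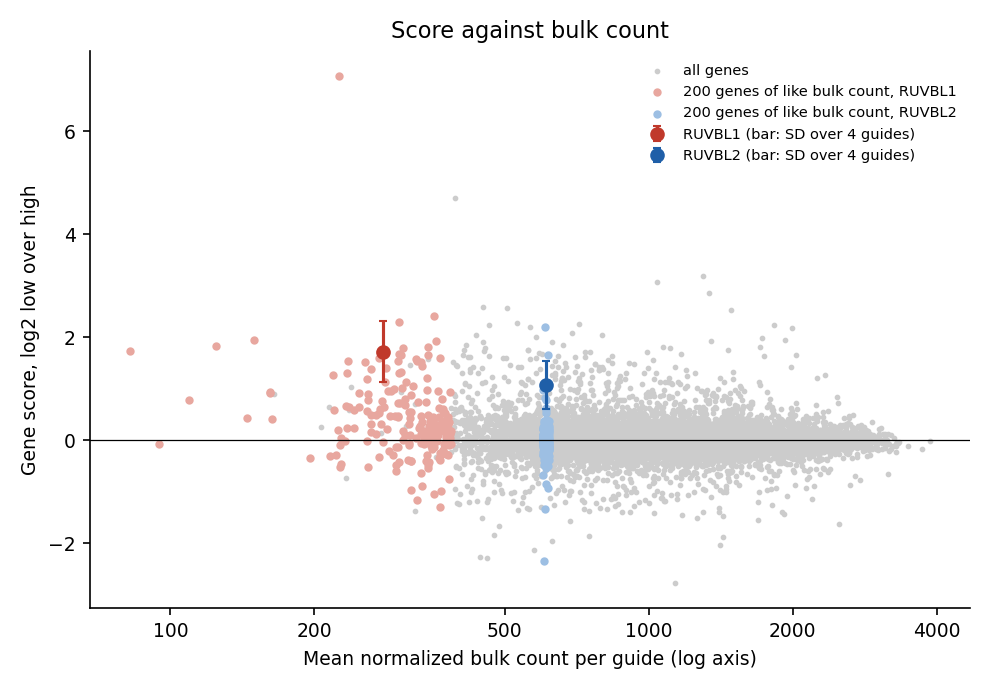
Gene score (log2 low over high) against mean normalized bulk count per guide (log axis) for all genes (grey), with the 200 genes of like bulk count for RUVBL1 (light red) and RUVBL2 (light blue), and the SD over 4 guides as bars on the 2 paralogs. The light red genes lean above 0 (median 0.29), the light blue genes centre on 0.00, and RUVBL1 and RUVBL2 sit near the top of their own sets.

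The guides were also set beside others one at a time. Against about 200 guides of the nearest bulk count, RUVBL1 guides 1 and 2 were above all of them (200 and 199 guides). Guide 3 had 7 of 199 guides above it and guide 4 had 26 of 200. Guides with a bulk count like that of guide 4 were spread widely, with a 95th percentile of 1.62. For RUVBL2, guides 1 to 4 had 1, 3, 26 and 7 of 200 like guides above them. The medians of the like guides lay between -0.04 and 0.15. The guides that stood lowest among their like were thus the rarest one in each paralog.

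The genes with the profile most like each paralog were found by the distance between their low over bulk and high over bulk scores, over the 3 libraries and 18655 genes with 4 guides. Among the nearest to RUVBL1 were BAP1, a deubiquitinase (distance 0.06), the beta-catenin cofactor BCL9L (0.09), the Mediator subunit MED11 (0.10) and the polymerase subunit POLR2B (0.11). Nearest to RUVBL2 were the ribosomal protein RPL35A (0.02), the mitochondrial chaperonin HSPD1 (0.03), the ribosome biogenesis factor NOP16 (0.03), the ribosomal protein RPL3 (0.05) and the chromatin assembly factor CHAF1B (0.05). These distances are inside the SD of the guides, so the order among the nearest genes is not resolved. The paralogs lay 0.46 apart, which put RUVBL2 143rd from RUVBL1 and RUVBL1 522nd from RUVBL2.

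The complexes that contain RUVBL1 and RUVBL2 or depend on them were described next, in lists that leave out both ATPases. Over all 19113 genes the median score was 0.00, with 1.09% at least 1 and 0.492% at most -1. In the list of R2TP and its prefoldin-like module all 9 members were above 0, the median was 0.82 and 4 reached 1. These were the prefoldin-like proteins PDRG1 (1.38 ± 0.57), URI1 (1.21 ± 0.55) and UXT (1.19 ± 0.21) and the polymerase subunit POLR2E (1.07 ± 0.94). The core R2TP adaptors were lower, with RPAP3, which docks HSP90, at 0.50 ± 0.19 and PIH1D1, which binds phosphorylated clients, at 0.04 ± 0.22. WDR92 was at 0.15 ± 0.23. Both ATPases thus scored above the 2 adaptors that define R2TP, but the weakest RUVBL2 guide (0.55) was close to the RPAP3 mean.

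Factors that assemble or import RNA polymerase II had a median of 0.83 over 6 genes, 3 of them at least 1. RPAP2, a polymerase-associated phosphatase, was at 1.73 ± 1.22, level with RUVBL1 in score but with a wider spread of its guides. The GTPase GPN1 was at 1.61 ± 0.27 and RPAP1 at 1.13 ± 1.15. ECD (0.10 ± 0.67) and ZNHIT2 (-0.40 ± 0.41), which bind R2TP, were the lowest of the list. Like RUVBL1, this list was low in the bulk bin, with a median bulk count of 317 against 1126 over all genes.

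Lists of other clients of the chaperone and their assembly factors had lower medians, and their members differed. In the list of the TTT complex and PIKK kinases 1 of 8 genes reached 1, the growth kinase MTOR at 1.21 ± 0.35, and the median was 0.20. The nonsense-mediated decay kinase SMG1 followed at 0.60 ± 0.34 and the kinase PRKDC at 0.43 ± 0.13. TELO2, the TTT subunit, and the damage kinase ATM were lowest, at -0.01 ± 0.25 and 0.00 ± 0.09, and 7 of the 8 genes were above 0. Proteins and assembly factors of the box C/D and H/ACA ribonucleoproteins had a median of 0.07 over 13 genes, with 0 at or beyond 1 on either side. The methyltransferase FBL (0.89 ± 0.28) and its partner NOP56 (0.68 ± 0.22) were the highest, followed by NOP58 (0.52 ± 0.19). NHP2L1 (-0.12 ± 0.21) and NOP10 (-0.06 ± 0.11) were the lowest, and 9 of the 13 genes were above 0.

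Subunits of the remodelling complexes lay on the other side of 0 or near it. No member of the INO80, SRCAP or TIP60 lists scored as high as RUVBL2. The INO80 list had a median of -0.11 over 13 genes, with 1 at most -1, and its highest members were TFPT (0.13 ± 0.45) and INO80C (0.06 ± 0.18). The ATPase INO80 itself was at -0.89 ± 0.67. The SRCAP list had a median of -0.67 over 7 genes with 3 at most -1. Those 3, among them YEATS4 (-1.12 ± 0.20), and VPS72 at the median (-0.67 ± 0.31) are also in the TIP60 list. The members not in the TIP60 list were higher. The ATPase SRCAP was at 0.00 ± 0.36, ACTR6 at -0.21 ± 0.35 and ZNHIT1 at -0.56 ± 0.23. The TIP60 list had a median of -0.70 over 16 genes with 7 at most -1, and its acetyltransferase KAT5 was at -1.32 ± 1.34. The scaffold TRRAP (0.40 ± 0.16) and MORF4L2 (0.39 ± 0.48) were its highest members. The lowest member of all 3 lists was the shared subunit ACTL6A (-1.43 ± 0.71). In TIP60 it was followed by ING3 (-1.37 ± 0.70, 3 guides) and the ATPase EP400 (-1.33 ± 0.13), which are in that list alone. In SRCAP, ACTL6A was followed by DMAP1 (-1.17 ± 0.43), which TIP60 shares.

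Each tail was set against the bulk bin for these groups too. For RUVBL1 and RUVBL2 the low and the high side moved by like amounts in the gene means, as given above. In the R2TP list the medians were 0.35 in low over bulk and -0.48 in high over bulk. In the TIP60 list the median was -0.03 in low over bulk and 0.80 in high over bulk, so its guides were richer in the high bin with nearly the bulk frequency in the low bin. The SRCAP list, which shares members with TIP60, had -0.04 and 0.47.

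Other AAA+ ATPases that form rings did not share one direction. Their median was 0.06 over 18 genes, with 9 above 0. The segregase VCP (1.68 ± 0.26) and the ribosome assembly factor MDN1 (1.06 ± 0.70) reached 1, and 0 reached -1. The proteasome ATPases PSMC6 (-0.68 ± 0.40) and PSMC1 (-0.66 ± 0.11) were the lowest. VCP also resembled RUVBL1 in its low mean bulk count of 301.

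**Figure D4:**
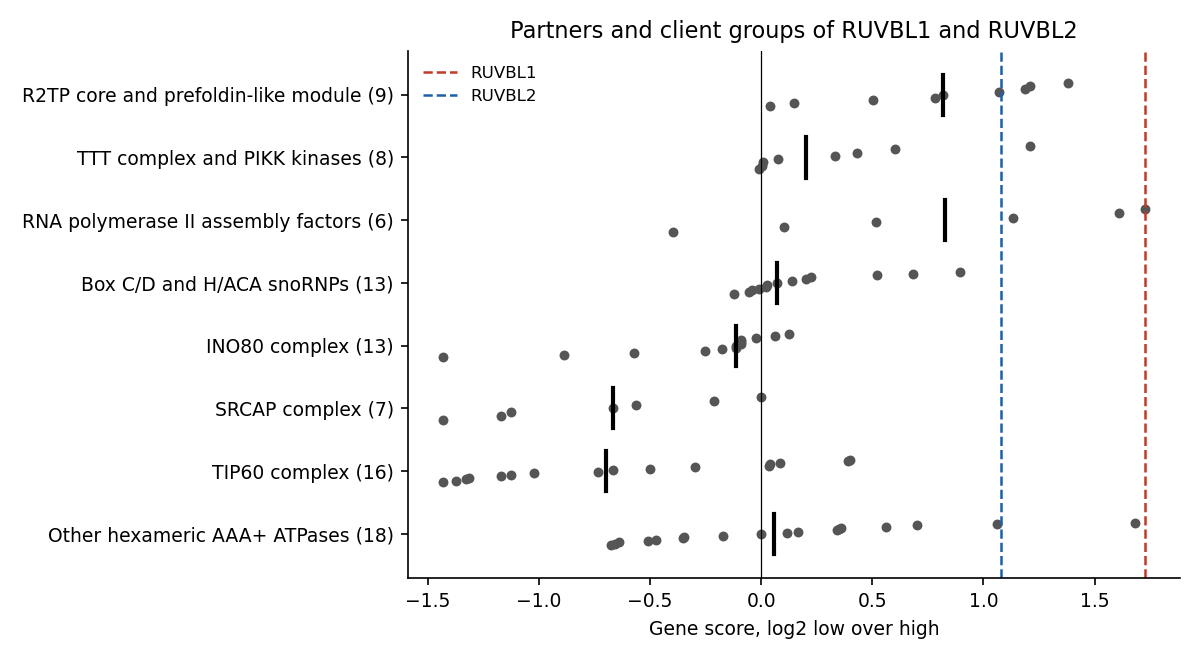
Gene scores (log2 low over high) of the members (points) and the median (black bar) of 8 gene lists, with the number of genes measured in brackets and dashed lines at RUVBL1 (1.73) and RUVBL2 (1.08). R2TP and polymerase assembly lists lie to the right (medians 0.82 and 0.83), and SRCAP and TIP60 to the left (-0.67 and -0.70).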

How the data were processed

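Guide counts of 3 sorted populations of AsPC-1 cells were analysed. The authors deposited raw counts per guide, amplified from genomic DNA by 1-step PCR. The study's methods name MAGeCK for scoring, which was not used here, and the counting tool is not given in the sources used here. From the deposited counts, median-ratio size factors were computed over all guides with Python 3.11.15 (numpy 2.4.6, pandas 2.3.3, scipy 1.17.1). Guides with a mean normalized count under 30 were left out, which kept 76980 guides, all 8 of RUVBL1 and RUVBL2 among them, and genes with at least 2 guides were scored. A score of at least 1 or at most -1 was the threshold for counting genes, and no test was made with 1 library per bin. The scoring was tested on simulated data. Depth was 90421905 to 102155005 counts per library. Reference sites were read from hg38, the build in the submitters' notes, with biopython 1.88. The genes and the lists were chosen with earlier results of these data known. Named genes were the paralogs, SERPINB5 and KLF5, the 5 nearest profiles of each paralog (1 of them is not reported here), the 2 highest and 2 lowest of each list with its core subunits, and the extreme chromosomal neighbours. Other list members, the genes above each paralog among those of like count, and the neighbours that overlap RUVBL1 were named after their values were seen. Alternatives were other scaling, centring, pseudocounts, filters, summaries and bins, fewer guides, other gate shares and other sets of like genes. The TF-focused tables hold no guide for either gene and were not used further.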

Additional observations from a re-analysis of the deposited data

How the results depend on the processing

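The low over high scores stayed above 0 in every alternative tried. RUVBL1 ranged from 1.54 to 1.94 with 1 guide left out and was 1.22 for low over the sum of bulk and high. RUVBL2 ranged from 0.90 to 1.25 with 1 guide left out, and its score was under 1 only without guide 1 (0.90) and for low over the sum of bulk and high (0.77). The difference between the paralogs ranged from 0.46 to 0.86 with 1 guide left out. The low gate share ranged from 31.1% to 33.8% for RUVBL1 and from 25.8% to 28.0% for RUVBL2 with 1 guide left out. It was 24.7% and 20.4% if the gates are taken as 15%, 80% and 5%, since the weights enter the estimate directly. These values cannot be set beside the 19.9% of the median gene, which was estimated with a low gate of 20%. Of 100 genes of like bulk count 5 were above RUVBL1 and 1 above RUVBL2, and of 500 genes RUVBL1 exceeded 96.4% and RUVBL2 98.2%. Among 200 genes of like estimated abundance, a set chosen after seeing the data, they exceeded 96.0% and 98.0%, and among 100 such genes each exceeded 99%. The RUVBL1 sets of 500 by bulk count and 200 by abundance were likewise the lowest genes with 4 guides. No paired analysis was possible because each bin was 1 library. The smallest count behind a member's ratio was 98, for RUVBL1 guide 2 in the high bin.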

Other observations

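Most genes beside RUVBL1 and RUVBL2 scored near 0. Within 500 kb of RUVBL1 all 11 protein-coding genes were measured, with a median score of 0.11 and 0 at or beyond 1 on either side. The translocon gene SEC61A1 and the selenocysteine elongation factor gene EEFSEC overlap the span of RUVBL1 and scored -0.42 ± 0.09 (the lowest of the 11) and 0.07 ± 0.22. RPN1, a subunit of the oligosaccharyltransferase, was the highest at 0.59 ± 0.37.

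Within 500 kb of RUVBL2, 54 of 58 protein-coding genes were measured, with a median score of 0.00. The highest were the ribosomal protein genes RPL18 (1.55 ± 0.18) and RPL13A (1.30 ± 1.01), the only ones of the 54 at or beyond 1, and the circadian factor gene DBP (-0.39 ± 0.15) was the lowest. The genes next to RUVBL2 on either side, GYS1 and LHB, scored -0.10 ± 0.19 and 0.12 ± 0.36. PIH1D1, the R2TP adaptor, lies 430328 bases from RUVBL2 and scored 0.04 ± 0.22.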
